A study of Mus musculus with 12 samples.

Results

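The genes described here are Pou2af1, Ebf1, Pax5, Vpreb1, Igll1, Vpreb3, Cd79a, Cd79b, Fcmr and Fcrla, a set of 10 genes of the B cell lineage. They were picked by name, from earlier results of the same arrays in which Pou2af1 was among the genes most different between the genotypes, and each was represented by the transcript cluster of highest mean level that names it alone. A transcript cluster is the group of probes that the array design assigns to a transcript. All 10 genes were found, of 19937 genes with such a transcript cluster, and each had 1 transcript cluster only. All 10 passed the filter on dim signals, which kept 29541 of 34760 transcript clusters. RNA came from lineage-depleted bone marrow of E4bp4-/- and E4bp4+/+ mice and was measured on the GeneChip Mouse Gene 1.0 ST platform, with 6 arrays for each genotype. E4bp4 is another name of Nfil3, a transcription factor needed for natural killer cell development. Before RNA was extracted, both groups went through magnetic depletion of cells bearing B220, CD2, Ter119, GR1, CD11b or NK1.1. Age, sex, strain and the design of the knockout allele are not given in the labels, nor is whether each array came from a separate mouse.

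B cells form in the marrow from lymphoid progenitors in a fixed order of steps. EBF1 and PAX5 are the transcription factors that start and then hold the B cell programme. A precursor with a rearranged heavy chain displays it together with the surrogate light chain, built from the VPREB1 and IGLL1 proteins, and with the signalling chains CD79A and CD79B, and this complex is the pre-B cell receptor. POU2AF1, also called OBF-1 or OCA-B, is a coactivator that binds DNA together with the octamer-binding factors OCT1 and OCT2 at the letters ATGCAAAT and is needed for germinal centres. FCMR is the Fc receptor for IgM, and FCRLA is an intracellular relative of Fc receptors found in B cells. B220, one of the antigens of the depletion, is carried by B cell precursors, so cells that bear it were a target of the depletion.

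Promoter sequences were available from RefSeq (GRCm38.p6) for 9 of the 10 genes, in 10 windows, and Cd79b is named only. Of these, 4 are shown over the 250 bases before the transcript start, since they belong to the coactivator, to the gene with a full octamer, and to the neighbouring pair of genes that encode the surrogate light chain. Capitals mark matches, on either strand, to ATGCAAAT (the octamer), TGCAAAT (its last 7 letters, so every octamer also holds it), CCCNNGGG (the core that EBF1 binds) or CAGGTG (an E-box that E proteins bind).
Pou2af1, chr9:51213440-51213689, plus strand: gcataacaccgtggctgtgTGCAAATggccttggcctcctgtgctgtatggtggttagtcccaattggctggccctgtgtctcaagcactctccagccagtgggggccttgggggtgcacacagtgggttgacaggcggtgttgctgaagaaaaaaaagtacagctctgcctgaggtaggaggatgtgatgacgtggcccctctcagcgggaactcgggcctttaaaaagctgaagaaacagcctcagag
Vpreb3, chr10:75948050-75948299, plus strand: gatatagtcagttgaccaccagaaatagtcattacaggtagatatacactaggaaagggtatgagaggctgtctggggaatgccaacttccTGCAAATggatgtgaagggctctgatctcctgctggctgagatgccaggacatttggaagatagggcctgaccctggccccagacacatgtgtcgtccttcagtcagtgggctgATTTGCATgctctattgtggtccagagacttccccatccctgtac
Igll1, chr16:16863986-16864235, minus strand: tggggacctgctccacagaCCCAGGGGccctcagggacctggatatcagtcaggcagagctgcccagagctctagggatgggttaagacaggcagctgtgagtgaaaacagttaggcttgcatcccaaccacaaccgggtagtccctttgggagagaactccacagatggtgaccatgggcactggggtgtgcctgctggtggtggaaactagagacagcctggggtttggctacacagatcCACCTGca
Vpreb1, chr16:16869256-16869505, minus strand: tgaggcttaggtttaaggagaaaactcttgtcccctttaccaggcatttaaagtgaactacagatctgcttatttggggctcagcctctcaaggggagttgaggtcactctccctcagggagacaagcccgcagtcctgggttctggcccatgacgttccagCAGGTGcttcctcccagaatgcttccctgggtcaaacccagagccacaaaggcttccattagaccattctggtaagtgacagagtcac

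The Pou2af1 window held the 7-letter TGCAAAT at bases -231 to -225, counted from the start, and no full octamer. The Vpreb3 window held the full octamer on the minus strand at bases -45 to -38, and a further TGCAAAT at -159 to -153. ATGCAAAT occurs in 1.6% and TGCAAAT in 3.56% of all 32851 RefSeq promoter windows of this length. CAGGTG was found before Igll1, Vpreb1, Cd79a and Fcrla and occurs in 17.2% of all windows, and CCCNNGGG was found before Igll1 and occurs in 11.8%. TTANNTAA, a form of the site that E4BP4 and its relatives bind, occurs in 5.43% of all windows and in 0 of the 10 windows of these genes. These matches are letters in a window and were not measured as binding.

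On the arrays, Nfil3 itself was at log2 levels of 6.38, 6.92, 6.34, 6.37, 6.57 and 6.37 in E4bp4-/- replicates 1 to 6, against 7.66, 7.18, 7.10, 7.11, 6.94 and 7.05 in E4bp4+/+ replicates 1 to 6, without overlap. Array medians lay between 6.50 and 6.62 and the 20th percentiles of the arrays between 4.93 and 4.99. E4bp4-/- replicate 1 stood apart: it had Xist at 6.08, where the other 11 arrays were between 12.10 and 12.65, and the Y-linked Uty was at 7.70, against at most 4.66. This is the pattern of a male on that array and of females on the other 11, so sex was not balanced between the genotypes. Its part in the differences was not tested. Kit and Flt3, receptors of the progenitors that the depletion leaves, were far above that percentile on every array, Kit by at least 5.99 and Flt3 by at least 4.05 log2. Both had higher means in E4bp4-/- marrow, Kit by 0.19 ± 0.06 and Flt3 by 0.36 ± 0.11 log2 (SE). Without E4bp4-/- replicate 1 these differences were 0.20 and 0.28. Defining genes of B cells were of mixed brightness. Of 12 listed genes of recombination and early lymphoid cells and 16 of later B cell surfaces, 1 each lay under the 20th percentile on all arrays, and 0 of the lineage factors or of the pre-B cell receptor signalling genes did. Dntt, the polymerase that adds letters at the joints, lay between 6.74 and 8.24 in E4bp4-/- and between 6.57 and 7.79 in E4bp4+/+ marrow, and Ly6d, a surface protein of early B lineage cells, between 7.01 and 7.76 in E4bp4-/- and between 6.87 and 8.04 in E4bp4+/+ marrow. Rag1 of the recombinase was above the percentile on all 12 arrays, by at least 0.095 log2. Rag2, its partner, and Cr2, a complement receptor of mature B cells, lay under the 20th percentile on all 12 arrays, Fcer2a on 9 and Ms4a1, which encodes CD20, on 7. Cd79a lay between 5.02 and 5.68 in E4bp4-/- and between 4.94 and 5.38 in E4bp4+/+ marrow, and on 1 array fell under the 20th percentile. B cell precursor is used here for the known roles of these genes, not for cells shown to be in the fraction. In RNA of a mixed fraction fewer cells of a type and less RNA per cell cannot be told apart.

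Pou2af1 was the member with the largest difference between the genotypes. Its levels were 7.46, 7.17, 7.30, 7.08, 7.76 and 7.50 in E4bp4-/- replicates 1 to 6, against 6.58, 6.93, 6.65, 6.44, 7.04 and 6.57 in E4bp4+/+ replicates 1 to 6. Every E4bp4-/- array lay above every E4bp4+/+ array, though the gap between the closest arrays, E4bp4-/- replicate 4 and E4bp4+/+ replicate 5, was 0.032. That gap was smaller than the 0.04 log2 by which array medians were on average higher in E4bp4-/-. With arrays centred on their medians the difference of Pou2af1 was 0.635 log2, and overlap was not checked there. The means were 7.38 ± 0.25 in E4bp4-/- and 6.70 ± 0.23 in E4bp4+/+ marrow (SD, n = 6 each). The difference from limma, a linear model fitted to all transcript clusters, was 0.68 ± 0.13 log2 (SE), or 1.60-fold, and 0.66 log2 without E4bp4-/- replicate 1. Since Pou2af1 was chosen for this difference, the values describe these arrays and are given with no test.

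**Figure D1:**
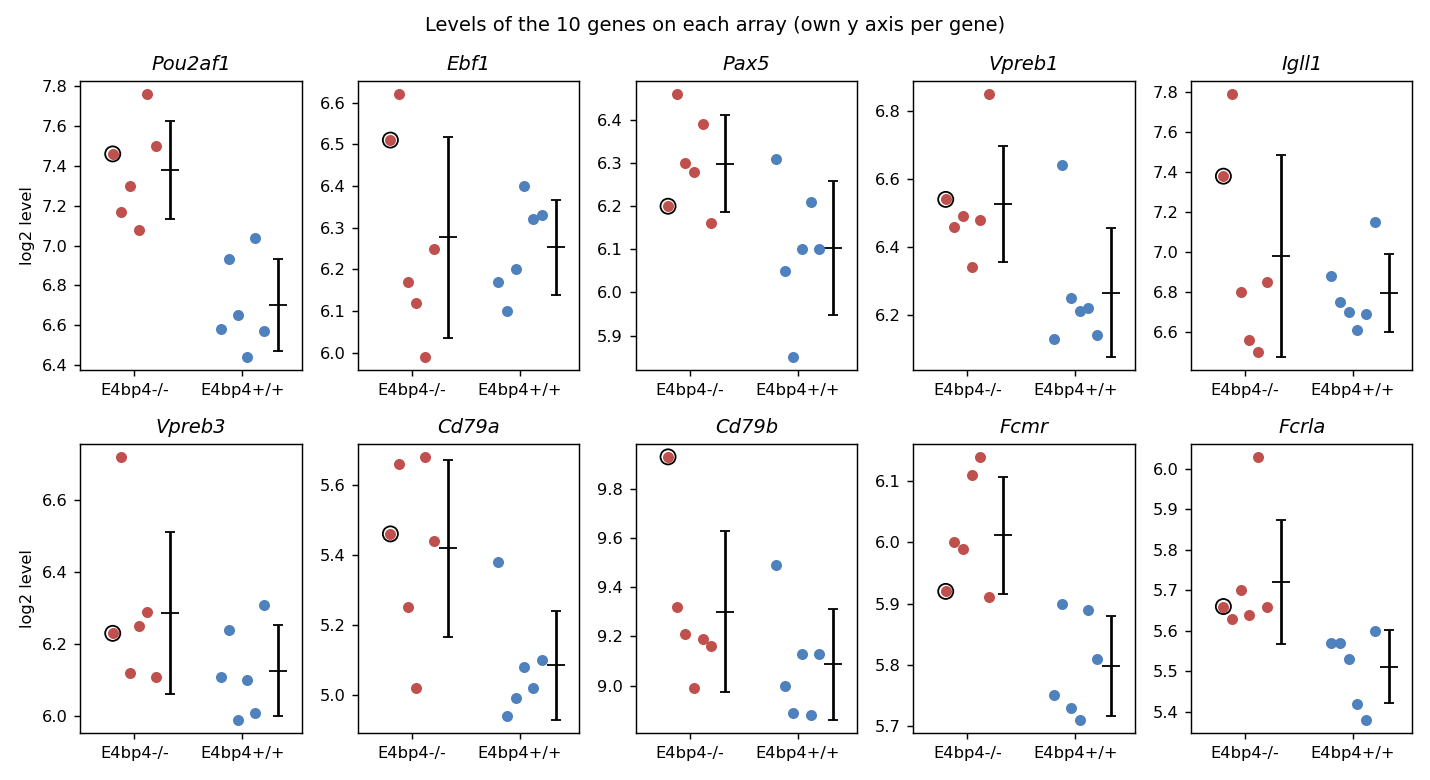
Log2 level of each gene on each array, in a panel with its own axis, with E4bp4-/- arrays in red on the left and E4bp4+/+ arrays in blue on the right. Bars show the mean and SD of 6 arrays, the circle marks E4bp4-/- replicate 1, and the points of Pou2af1, Fcmr and Fcrla do not overlap between the genotypes.

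The lineage factors differed less. Ebf1 had a lowest, median and highest level of 5.99, 6.21 and 6.62 in E4bp4-/- marrow, against 6.10, 6.26 and 6.40 in E4bp4+/+ marrow. The E4bp4-/- arrays lay on both sides of the E4bp4+/+ arrays, with replicates 1 and 2 above all of them, and the difference was 0.02 ± 0.10 log2 (SE). Its sign turned to -0.02 when the arrays were quantile normalised, when they were centred on their medians and without E4bp4-/- replicate 1, to -0.0455 without E4bp4-/- replicate 2 and to -0.0078 without E4bp4+/+ replicate 2. Pax5 had a lowest, median and highest level of 6.16, 6.29 and 6.46 in E4bp4-/- marrow, against 5.85, 6.10 and 6.31 in E4bp4+/+ marrow. The genotypes overlapped, 2 E4bp4-/- arrays lay above all E4bp4+/+ arrays, and the difference was 0.19 ± 0.07 log2 (SE), or 0.21 without E4bp4-/- replicate 1.

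Genes of the surrogate light chain were uneven among the arrays. Vpreb1 had a lowest, median and highest level of 6.34, 6.49 and 6.85 in E4bp4-/- marrow, against 6.13, 6.21 and 6.64 in E4bp4+/+ marrow. All E4bp4+/+ arrays but replicate 2 lay below every E4bp4-/- array, and the difference was 0.26 ± 0.10 log2 (SE). Vpreb1 has a close copy, Vpreb2, whose transcripts the probes of an array may not separate, so its signal is uncertain; the Vpreb2 transcript cluster differed by 0.05 ± 0.07 log2, a value smaller than its error that lay between 0.025 and 0.10 with 1 array left out. Igll1 had a lowest, median and highest level of 6.50, 6.83 and 7.79 in E4bp4-/- marrow, against 6.61, 6.72 and 7.15 in E4bp4+/+ marrow. Its E4bp4-/- arrays held both the highest and the lowest level of all, with an SD of 0.50 in E4bp4-/- and 0.19 in E4bp4+/+ marrow. The difference of Igll1, 0.19 ± 0.20 log2 (SE), was smaller than its error and rested on single arrays: it was 0.11 without E4bp4-/- replicate 1, 0.026 without E4bp4-/- replicate 2 and 0.28 without E4bp4-/- replicate 5. Vpreb3, a relative of Vpreb1 whose protein binds immunoglobulin chains inside precursor B cells, had a lowest, median and highest level of 6.11, 6.24 and 6.72 in E4bp4-/- marrow, against 5.99, 6.10 and 6.31 in E4bp4+/+ marrow. E4bp4-/- replicate 2 was its high array, and the difference of 0.16 ± 0.10 log2 (SE) was 0.075 without it.

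The signalling chains of the receptor overlapped between the genotypes. Cd79a had a median of 5.45 in E4bp4-/- and 5.05 in E4bp4+/+ marrow, and 4 of 6 E4bp4-/- arrays lay above all E4bp4+/+ arrays. Its difference was 0.33 ± 0.11 log2 (SE), and 0.32 without E4bp4-/- replicate 1. A signal this close to the 20th percentile can understate a difference. Cd79b had a lowest, median and highest level of 8.99, 9.20 and 9.93 in E4bp4-/- marrow, against 8.88, 9.06 and 9.49 in E4bp4+/+ marrow. Replicate 1 was the high array in both genotypes. The difference of Cd79b was 0.22 ± 0.15 log2 (SE) over all arrays and 0.09 without E4bp4-/- replicate 1.

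Both genes of the Fc receptor family were separated by genotype, by narrow gaps. Fcmr had a lowest, median and highest level of 5.91, 6.00 and 6.14 in E4bp4-/- marrow, against 5.71, 5.78 and 5.90 in E4bp4+/+ marrow. Its closest arrays were 0.005 apart, and the difference was 0.21 ± 0.05 log2 (SE), or 0.23 without E4bp4-/- replicate 1. Fcrla had a lowest, median and highest level of 5.63, 5.66 and 6.03 in E4bp4-/- marrow, against 5.38, 5.55 and 5.60 in E4bp4+/+ marrow. Its closest arrays were 0.022 apart, E4bp4-/- replicate 5 was its high array, and the difference was 0.21 ± 0.07 log2 (SE). Both genes were dim and stayed below the array median on every array. Both gaps were smaller than the 0.04 log2 by which array medians were on average higher in E4bp4-/-. With arrays centred on their medians both differences were 0.17 log2, and overlap was not checked there.

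**Figure D2:**
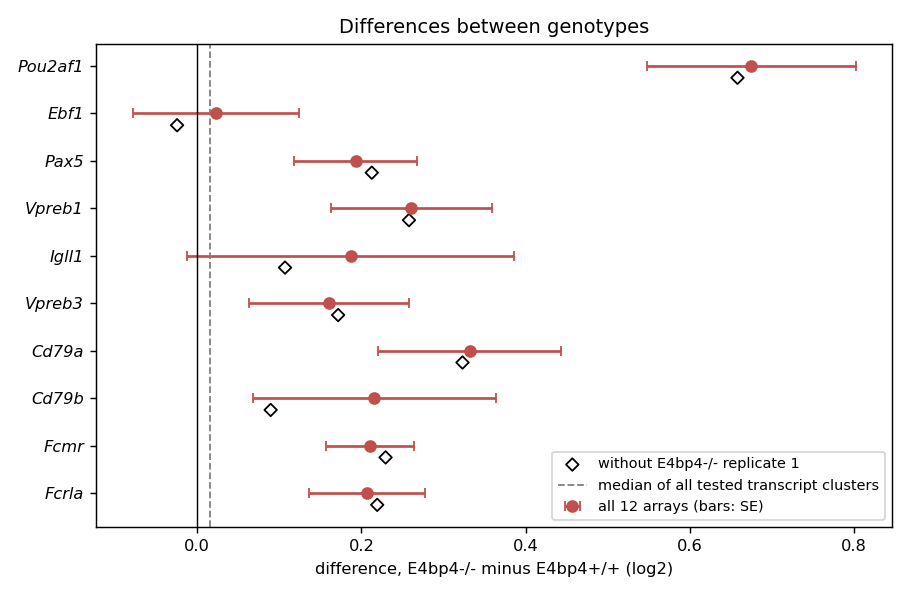
Difference of each gene, E4bp4-/- minus E4bp4+/+, in log2, with red points and SE bars over all 12 arrays and open diamonds without E4bp4-/- replicate 1. Pou2af1 stands at 0.68, Ebf1 at 0.02, the other 8 between 0.16 and 0.33, and the dashed line marks the median of all tested transcript clusters, 0.015.

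Counted together, 10 of 10 members had a positive difference, with a median of 0.21 log2, beside 55.9% of all tested transcript clusters and their median of 0.015. Without E4bp4-/- replicate 1, 9 of 10 were positive with a median of 0.22. At an adjusted p of 0.05 in limma with Benjamini-Hochberg adjustment, 0 of 10 members were called, Pou2af1 not excepted, where 0% of all tested transcript clusters were. At an unadjusted p of 0.05, 6 of 10 members were called, all higher in E4bp4-/-, where 14.9% of all were called, 8.47% higher and 6.39% lower. The arrays of the genotypes did not overlap for 3 of 10 members, all higher in E4bp4-/-, where 0.619% of all were higher without overlap. Of the calls at an unadjusted p of 0.05 over all transcript clusters, 57% were higher in E4bp4-/- on the deposited scale, 46.9% when the arrays were quantile normalised and 22% when they were centred on their medians. Under a stricter filter at the 50th percentile, 6 members were tested and 2 were called, and 47.5% of all 3116 calls were higher in E4bp4-/-. How many transcript clusters were tested under that filter is not given, so the 2 of 6 has no background rate beside it. The counts and shares of members above describe genes chosen with this contrast known, so nothing is read from them.

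The spread among arrays of 1 genotype leaves out the difference between the genotypes, and it was used to ask whether the members varied together. It may still have entered the earlier results behind the choice, if these ranked genes by a test that uses it. For each array the deviation from the mean of its own genotype was taken, and the 45 pairs of members were compared over 12 arrays by permuting arrays within genotypes, 100000 times, two-sided. Pearson's r was positive in 26 pairs and negative in 19, with a median of 0.11. No pair passed a Benjamini-Hochberg adjusted p of 0.05 in this permutation test, and 3 pairs had an unadjusted p under 0.05. Joint variation of the members was thus not detectable with this number of arrays.

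**Figure D3:**
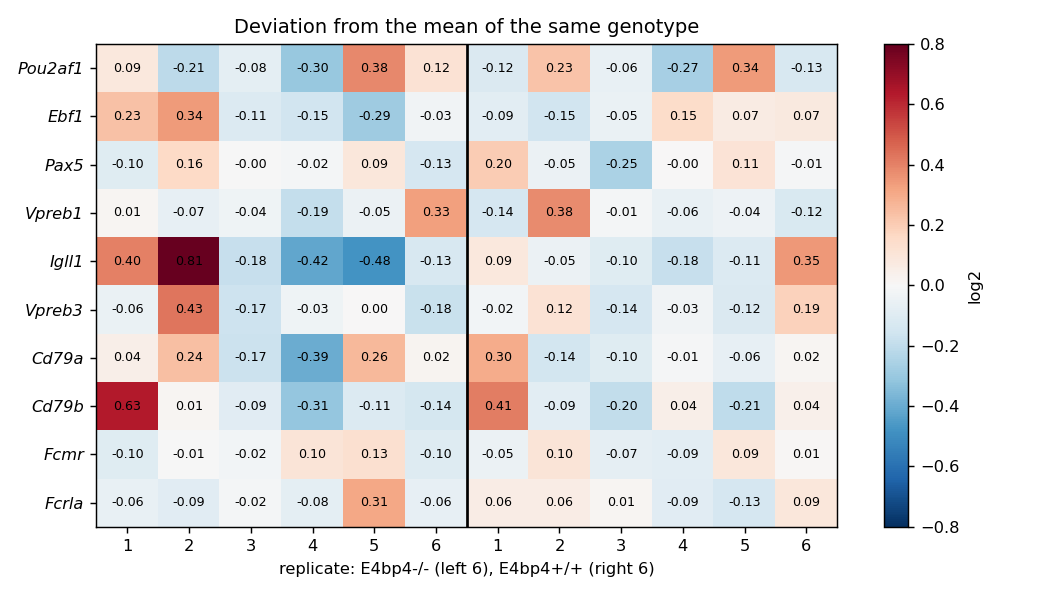
Deviation of each gene from the mean of its genotype on each array, in log2, with E4bp4-/- replicates in the left 6 columns and E4bp4+/+ replicates in the right 6. Igll1, Ebf1 and Vpreb3 are high on E4bp4-/- replicate 2, Cd79b on replicate 1 of both genotypes, and Pou2af1 on replicate 5 of both genotypes.

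The closest pair was Igll1 and Ebf1, with r = 0.82 (permutation p = 0.0112, adjusted 0.504) and rho = 0.65 (permutation p = 0.0602, adjusted 0.60). Within E4bp4-/- arrays r was 0.98 and within E4bp4+/+ arrays -0.03, and without E4bp4-/- replicates 1 and 2, the arrays farthest from the median of Igll1, it was 0.29, so the relation rests on those arrays. Igll1 and Vpreb3 had r = 0.69 (permutation p = 0.0383, adjusted 0.6246) and rho = 0.38 (permutation p = 0.276, adjusted 0.741), and r was -0.08 without E4bp4-/- replicate 2 and E4bp4+/+ replicate 6. Ebf1 and Fcrla ran in opposite directions, with r = -0.63 (permutation p = 0.0441, adjusted 0.6246) and rho = -0.52 (permutation p = 0.08, adjusted 0.60), and r was -0.68 without E4bp4-/- replicates 1 and 2. The neighbours Igll1 and Vpreb1, on chromosome 16 with 0 other gene starts between them, had r = -0.05 (permutation p = 0.885, adjusted 0.948) and rho = 0.07 (permutation p = 0.841, adjusted 0.923), and r was 0.16 without E4bp4-/- replicate 6 and E4bp4+/+ replicate 2.

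Pou2af1 had its highest r among the members with Vpreb1, at 0.49 (permutation p = 0.119, adjusted 0.6246) with rho = 0.68 (permutation p = 0.0258, adjusted 0.60), and 0.87 without replicate 5 of both genotypes. Its r was 0.40 with Fcmr and with Fcrla, 0.21 with Cd79a, -0.07 with Cd79b, -0.26 with Igll1 and -0.34 with Ebf1. Over 26 comparisons of Pou2af1 and Igll1 with the mean levels of 13 gene lists, 0 passed an adjusted p of 0.05 in the same permutation test. Pou2af1 against the plasma cell list had r = 0.13 (permutation p = 0.706, adjusted 0.99) and rho = 0.11 (permutation p = 0.739, adjusted 0.992), with 0.83 within E4bp4-/- and -0.52 within E4bp4+/+ arrays, and 0.27 without replicate 5 of both genotypes. Igll1 had its highest r with the list of later B cell surface genes and its highest rho with the neutrophil granule list. Against the surface genes it had r = 0.67 (permutation p = 0.0247, adjusted 0.365) and rho = 0.72 (permutation p = 0.0153, adjusted 0.133), and r = 0.49 without E4bp4-/- replicates 1 and 2. Against the neutrophil granule list it had r = 0.62 (permutation p = 0.101, adjusted 0.376) and rho = 0.80 (permutation p = 0.00436, adjusted 0.108), and r = 0.52 without the same arrays. Against the megakaryocyte list it had r = -0.50 (permutation p = 0.146, adjusted 0.421) and rho = -0.69 (permutation p = 0.00831, adjusted 0.108), and against the plasmacytoid dendritic cell list r = 0.64 (permutation p = 0.0734, adjusted 0.376).

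**Figure D4:**
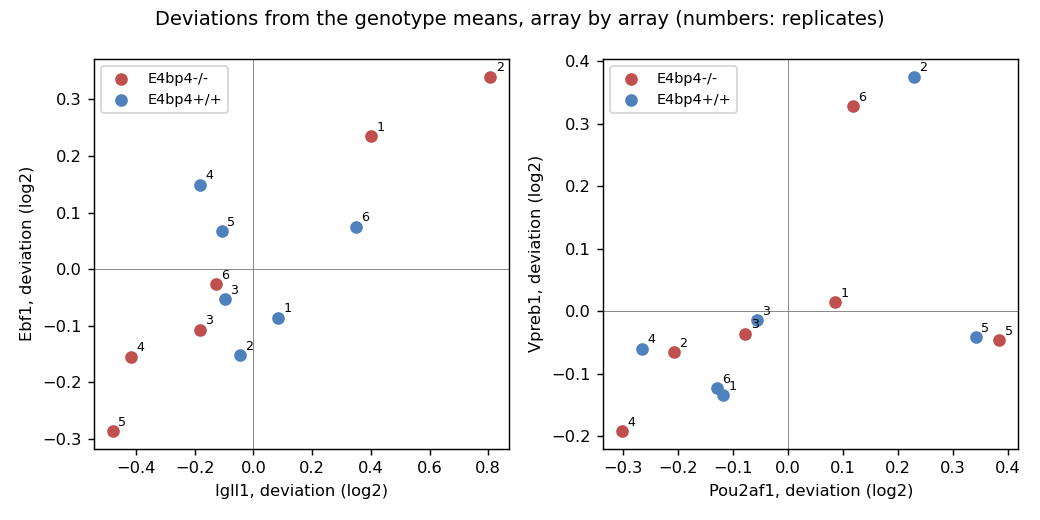
Deviations from the genotype means for Igll1 against Ebf1 (left) and Pou2af1 against Vpreb1 (right), in log2, with a point for each array and its replicate number. On the left, E4bp4-/- replicates 1 and 2 hold the upper right corner and E4bp4-/- replicates 4 and 5 the lower left; on the right, replicate 5 of both genotypes is high for Pou2af1 and not for Vpreb1.

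Among 17806 other genes, those with levels most like Pou2af1 over 12 arrays were Lce1k (r = 0.95), Tmem25 (0.94), Fer1l5 (0.94), Olfr678 (0.93) and Chrng (0.92). In the deviations from the genotype means they were Sema4g (0.92), Chrng (0.91), Lrrc52 (0.91), Tmem25 (0.87) and Sox15 (0.87). In the same measure for Cd79a they were 4930577N17Rik (0.90), Fkbp2 (0.88), Rbmxl2 (0.85), Hykk (0.84) and Rnf10 (0.82). No member was among them: Vpreb1, at rank 978 in the deviations, stood closest to Pou2af1. The ranking by levels also holds the genotype difference for which Pou2af1 was chosen. How high the top r among 17806 unrelated genes would be on 12 arrays was not tested, so nothing is read from these names.

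Genes of the B cell lineage outside the members were taken from lists of 85 genes in all, of which 73 were tested. At an adjusted p of 0.05 in limma, 0 of 73 passed. At an unadjusted p of 0.05, 17 were higher and 1 lower in E4bp4-/- marrow, beside 8.47% higher and 6.39% lower among all tested. The median difference of these genes was 0.11 log2 and 58 of 73 were positive, but without E4bp4-/- replicate 1 these were 0.037 and 51. Centring arrays on their medians lowers each difference by 0.04 log2 and gave a median of 0.072 with 54 positive. The 18 genes at that p became 11 without E4bp4+/+ replicate 5, 10 without E4bp4+/+ replicate 6 and 12 without E4bp4-/- replicate 1.

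Of 17 lineage transcription factors, 15 had a positive difference, with a median of 0.12 log2 (14 and 0.076 without E4bp4-/- replicate 1), and 5 were higher at an unadjusted p of 0.05. Bach2, a repressor that holds back plasma cell differentiation, was at 7.28 ± 0.08 in E4bp4-/- and 7.004 ± 0.13 in E4bp4+/+ marrow (SD, n = 6 each), a difference of 0.28 ± 0.06 log2 (SE) with a limma adjusted p of 0.148, and its arrays did not overlap. Pou2f2, which encodes the OCT2 partner of POU2AF1, differed by 0.25 ± 0.07 log2 (adjusted p 0.198), Irf4 by 0.28 ± 0.11 (0.285) and the progenitor factor Myb by 0.11 ± 0.05 (0.319). Tcf3, which encodes the E2A proteins that act before EBF1, differed by 0.0012 ± 0.050.

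Of 14 tested genes of pre-B cell receptor signalling, 13 had a positive difference, with a median of 0.11 log2, but without E4bp4-/- replicate 1 these were 10 and 0.022, and with arrays centred 12 and 0.075. The adaptor Dapp1 differed by 0.10 ± 0.04 log2 (limma adjusted p 0.245), and was the 1 gene of the list at an unadjusted p of 0.05. The kinase Syk differed by 0.20 ± 0.11, the phospholipase Plcg2 by 0.27 ± 0.16 and the linker Blnk by -0.14 ± 0.08, and Syk and Plcg2 differed by 0.10 and 0.14 without E4bp4-/- replicate 1, and Blnk by -0.077 without E4bp4+/+ replicate 6.

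Of 11 tested genes of recombination and early lymphoid cells, 7 had a positive difference, with a median of 0.12 log2. That median was 0.061 without E4bp4-/- replicate 1, and 0.055, 0.028 and 0.039 without E4bp4+/+ replicates 1, 3 and 5, and 0.077 with arrays centred. Arpp21 differed by 0.17 ± 0.05 log2 (limma adjusted p 0.18), Sox4 by 0.14 ± 0.05 (0.263), Atm by 0.15 ± 0.08 and Lig4, a ligase of DNA end joining, by 0.12 ± 0.07, but Atm by 0.092 and Lig4 by 0.055 without E4bp4+/+ replicate 1. Of 15 tested surface genes of later B cells, 9 had a positive difference, with a median of 0.036. That median ran from 0.0027 without E4bp4-/- replicate 1 to 0.06 without E4bp4+/+ replicate 2, and was -0.0043 with arrays centred on their medians, so the list has no settled direction. Tnfrsf13c, the BAFF receptor, differed by 0.19 ± 0.06 (0.217), Fcrlb, a relative of Fcrla, by 0.14 ± 0.05 (0.231), Cd24a by -0.15 ± 0.06 (0.284) and Cd55 by -0.17 ± 0.09, or -0.086 without E4bp4-/- replicate 1.

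**Figure D5:**
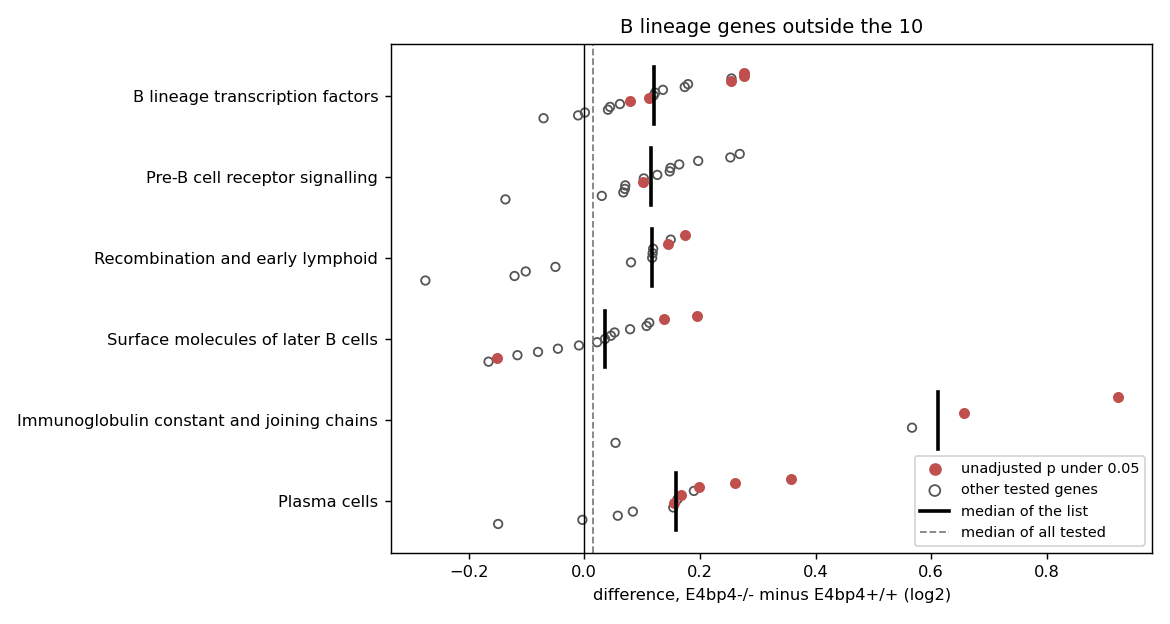
Difference, E4bp4-/- minus E4bp4+/+, in log2, of each tested gene of the B lineage lists that is not a member, with filled red points where the unadjusted limma p was under 0.05 and black lines at list medians. List medians run from 0.036 for later surface genes to 0.61 for the immunoglobulin and joining chain list (0.0027 and 0.30 without E4bp4-/- replicate 1). Only 4 of the 11 genes of that last list were tested, Ighm, Igha, Jchain and Vpreb2, and no gene passed the adjusted p.

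Immunoglobulin and plasma cell genes are given beside Pou2af1 because plasma cells also express it. Ighm, the constant region of IgM, was at 8.82 ± 0.70 in E4bp4-/- and 7.90 ± 0.72 in E4bp4+/+ marrow (SD, n = 6 each), a difference of 0.92 ± 0.37 log2 (SE, limma adjusted p 0.285), and the genotypes overlapped. Jchain, which joins secreted IgM and IgA units, differed by 0.66 ± 0.29 (0.326). Igha, the constant region of IgA, was at 12.7 on E4bp4-/- replicate 1 and between 8.18 and 8.97 on the other E4bp4-/- arrays, against 8.44 to 9.34 on E4bp4+/+ arrays. Its difference of 0.57 ± 0.61 log2 became -0.09 without that array. Ighm had 3 transcript clusters and Igha 2, and only the cluster of highest mean is given for each, so whether the others differ alike is not shown. Of 12 plasma cell genes 10 had a positive difference, with a median of 0.16 log2, and 5 were higher at an unadjusted p of 0.05. They included Prdm1, the plasma cell master regulator (0.17 ± 0.06, limma adjusted p 0.238), Derl3 (0.36 ± 0.13, 0.26), Mzb1 (0.26 ± 0.11, 0.31) and Sdc1 (0.16 ± 0.07, 0.316), and Mzb1 differed by 0.16 without E4bp4-/- replicate 5. The mean level of this list ran from 7.79 to 8.03 on E4bp4-/- arrays, against 7.64 to 7.93 on E4bp4+/+ arrays, and its part in the Pou2af1 difference was not tested.

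Other cells that the fraction could hold were measured the same way. Plasmacytoid dendritic cell genes had a list mean between 6.59 and 7.14 on E4bp4-/- and between 6.60 and 6.85 on E4bp4+/+ arrays, with 8 of 9 positive differences but Ccr9 at -0.51 ± 0.14 log2 (limma adjusted p 0.184) and Lag3 at 0.14 ± 0.07, or 0.093 without E4bp4-/- replicate 1. Neutrophil granule genes had a list mean of 10.29 on E4bp4-/- replicate 1 and 7.9 to 8.89 on the other E4bp4-/- arrays, against 7.89 to 8.96 on E4bp4+/+ arrays, and 11 of 12 positive differences, by a median of 0.35, with Cd177 at 0.29 ± 0.15 and Mmp8 at 0.42 ± 0.22. Without E4bp4-/- replicate 1 that list had 8 of 12 positive differences and a median of 0.055, with Cd177 at 0.14 and Mmp8 at 0.19. Of 10 T cell genes 9 were positive, by a median of 0.073, with Lat at 0.34 ± 0.10 and Cd3e at 0.19 ± 0.07, and 7 were, by 0.033, when arrays were centred on their medians. Of 7 NK cell genes 6 were positive, by a median of 0.022, but 3 of 7, by -0.0062, without E4bp4-/- replicate 1, and 2 of 7, by -0.018, when arrays were centred on their medians. Among them Ncr1 was at -0.14 ± 0.06 and Eomes at 0.071 ± 0.050, or 0.035 without E4bp4-/- replicate 5. All 7 megakaryocyte genes were positive, by a median of 0.41, with Itga2b at 0.41 ± 0.11 and Treml1 at 0.55 ± 0.17, and all 7 erythroid genes negative, by -0.10, with Slc4a1 at -0.26 ± 0.20 and Tfrc at -0.11 ± 0.09. Without E4bp4-/- replicate 1, 2 of 7 erythroid genes were positive, the median was -0.02 and Tfrc was at -0.039. Slc4a1 was at -0.14 without E4bp4-/- replicate 4 and -0.15 without E4bp4+/+ replicate 6. All 8 stem and progenitor genes were positive, by a median of 0.19, with Tek at 0.19 ± 0.05 and Esam at 0.28 ± 0.08. Of these, 7 were positive, by 0.15, when arrays were centred on their medians, and 7, by 0.19, without E4bp4-/- replicate 1. At an unadjusted p of 0.05 in limma, 6 of 8 stem and progenitor, 4 of 7 megakaryocyte and 3 of 10 T cell genes were higher in E4bp4-/-. For the B lineage genes outside the members this was 17 of 73. Of 9 plasmacytoid dendritic cell genes 1 was higher and 1 lower, and 1 of 7 NK cell genes was lower. Among neutrophil granule and erythroid genes 0 were called. The limma adjusted p of each of these genes was above 0.05, and their part in the differences of the members was not tested. Of the antigens of the depletion, Ptprc, the gene of B220 and of the other CD45 forms, lay between 8.55 and 9.51 in E4bp4-/- and between 8.61 and 9.02 in E4bp4+/+ marrow, and Cd2 was above the 20th percentile on all 12 arrays, by at least 0.02 log2. Klrb1c (NK1.1) lay under the 20th percentile on all 12 arrays and Ly6g (GR1) on 6. Itgam (CD11b) differed by 0.30 ± 0.32 log2 over all arrays, 0.05 without E4bp4-/- replicate 1, 0.46 without E4bp4-/- replicate 4 and 0.19 without E4bp4+/+ replicate 5. Ly6g differed by 0.27 ± 0.25 log2 over all arrays and 0.0055 without E4bp4-/- replicate 1. Ter119 is not represented among these genes. The mean of the erythroid list lay between 11.18 and 11.63 on E4bp4-/- arrays and between 11.42 and 11.78 on E4bp4+/+ arrays. How complete the depletion was is not shown by these values.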

How the data were processed

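Per the series design text, the authors normalised the arrays in GeneSpring GX version 11 by RMA16, which gives 1 level for each transcript cluster. The deposited values run from 3.18 to 14.33 and were read as log2 on that ground. Probe annotation and build of that step are not given in the sources used here. Groups came from the genotype in the labels. A transcript cluster was tested if any array had it at or above the 20th percentile of that array. The test was limma 3.58.1 under R 4.3.3 (lmFit, eBayes, Benjamini-Hochberg), after the series text, which names such a filter and a moderated test. The script was tested on simulated data. By the platform's annotation 21640 transcript clusters carry 1 gene name, 1321 carry several, and 11799, control probes included, carry none. Of the first, 21553 were found in the RefSeq table of GRCm38.p6, and 0 symbols changed.

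The members and lists were chosen with earlier results of these data known. Besides the members and Nfil3, the text names up to 4 genes of lowest p per B lineage list, up to 2 per list of other cells, and the 5 genes most like Pou2af1 or Cd79a. Tcf3, Vpreb2, Kit, Flt3, Xist, Uty, Dntt, Ly6d, Rag1, the dim B cell markers and the depletion antigens were named after their values were seen. Alternatives covered the filter, scaling, variance prior, array weights, replicate block and each array left out. For the medians of gene lists, the scaling and left-out arrays were added after seeing the data.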

Additional observations from a re-analysis of the deposited data

Results flagged for a closer look

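Values at the end of their genotype's range are listed where the distance to the next of the 6 arrays took up more of that range than Dixon's critical value for 6 values allows. This held in 18 of 130 groups of 6 arrays, beside about 6.5 by chance (1 in 20), and 7 of the 18 were on E4bp4-/- replicate 1.

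Among the 20 groups of member values, it held in 5. Cd79b was at 9.93 on E4bp4-/- replicate 1, Vpreb3 at 6.72 on E4bp4-/- replicate 2 and Fcrla at 6.03 on E4bp4-/- replicate 5. Cd79a was at 5.38 on E4bp4+/+ replicate 1 and Vpreb1 at 6.64 on E4bp4+/+ replicate 2.

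Other values on E4bp4-/- replicate 1 were Igha at 12.7, Cd55 at 7.09, Cd177 at 7.80, Mmp8 at 6.59, Ly6g at 6.55 and the mean of the megakaryocyte list at 9.84. E4bp4-/- replicate 5 had Mzb1 at 7.05 and Eomes at 5.59. E4bp4+/+ replicate 1 had Nfil3 at 7.66 and Lig4 at 6.41, E4bp4+/+ replicate 2 had Ccr9 at 6.08 and Itga2b at 9.07, and E4bp4+/+ replicate 6 had an erythroid list mean of 11.78.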

How the results depend on the processing

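The median difference over the 10 members was 0.21 log2 and lay between 0.17 and 0.25 under every alternative run, with 9 or 10 members positive; Ebf1 was the member that turned sign. Ebf1 was at -0.019 after quantile normalisation, -0.018 after centring on the median and -0.0064 with array weights, and ran from -0.0455 to 0.0798 with 1 array left out. Under a 50th percentile filter only 6 members were tested, since Fcmr, Cd79a, Pax5 and Fcrla are dimmer than that, so no median over 10 was made there. Of those 6 members, 2 had an unadjusted limma p under 0.05 with that filter, and the rate among all transcript clusters tested with it is not given. The calls over all transcript clusters at an adjusted p of 0.05 in limma, 0 as reported, were 5 with array weights and 0 to 4 with 1 array left out, and none of them was a member. Calls at an unadjusted p of 0.05, 4391 as reported, ran from 3461 to 5065 with 1 array left out. B lineage genes outside the members at that p, 18 as reported, ran from 10 to 22, and Igha from -0.092 to 0.8117. Chosen after seeing the data, list medians were recomputed too: that of later B cell surface genes was -0.0043 after centring on the median, and that of NK cell genes -0.018 there and -0.0062 to 0.0695 with 1 array left out. The cause of these changes was not tested. Replicate numbers are shared by the genotypes, but the labels do not call them pairs, and the main fit did not take them as such. Deviations of same-numbered arrays correlated at 0.46, 0.035, 0.068, -0.033, 0.185 and 0.171 for replicates 1 to 6. Of 6 E4bp4-/- arrays, 3 matched their own number best. Whether same-numbered arrays share a batch was not tested, and the permutations within genotypes take no account of it. With the replicate block in limma, 5149 transcript clusters, 22 B lineage genes and 7 members had an unadjusted p under 0.05 and 0 an adjusted one. Averaging all transcript clusters of a gene left the members as they were, since each has 1. The number of arrays, 6 per genotype, limits the precision.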
